A study of Mus musculus with 8 samples.

Results

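Iron handling was followed through 10 genes in the N2a line, which derives from a mouse neuroblastoma, after Emg1, the gene of an 18S ribosomal RNA methyltransferase, had been knocked down. The genes were Lcn2, Tfrc, Slc11a2, Fth1, Ftl1, Slc40a1, Cp, Ireb2, Aco1 and Hmox1, matched by symbol, and all 10 were found among the 16279 genes of the input RNA table. They were chosen by name with the input RNA changes of these libraries already in view, Lcn2 and Cp being among the largest rises. Their changes are therefore given as a description, and nothing is read from how many of them changed.

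The knockdown cells had been transfected with a small interfering RNA (siRNA) against Emg1, and the control cells with siControl using the same reagent, and both were harvested at 48 h. Poly(A) RNA was sequenced as input and after immunoprecipitation (IP) for N6-methyladenosine (m6A), giving 4 groups of 2 libraries: siEmg1 IP, siEmg1 input, siControl IP and siControl input. The labels do not tell whether libraries of a group were separate cultures, and the errors below may measure technical spread. The deposited tables hold no value per library, so a level is known only as a mean over the fit and a change only with its standard error (SE).

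Cells take up transferrin-bound iron through the transferrin receptor, move it out of the endosome through a divalent metal transporter, store it in ferritin and export it through ferroportin. A pair of iron regulatory proteins senses cytosolic iron. When iron is scarce they bind RNA hairpins called iron-responsive elements, which lowers translation of the ferritin and ferroportin mRNAs and stabilises the mRNA of the transferrin receptor. m6A is the most common internal modification of mRNA and can influence its stability and translation.

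The sequences at the largest rises and at one of the m6A peaks are shown first. RefSeq promoter windows on GRCm38.p6, the assembly of the mm10 build, were matched by symbol for 7 of the 10 genes, as 10 windows because some genes have several annotated starts. Lcn2 had the largest rise, and the 250 bases before its annotated start are given on the minus strand (chr2:32387740-32387989). Capitals mark a match to TTGCNNAA, a form of the site of C/EBP factors:
Lcn2 promoter: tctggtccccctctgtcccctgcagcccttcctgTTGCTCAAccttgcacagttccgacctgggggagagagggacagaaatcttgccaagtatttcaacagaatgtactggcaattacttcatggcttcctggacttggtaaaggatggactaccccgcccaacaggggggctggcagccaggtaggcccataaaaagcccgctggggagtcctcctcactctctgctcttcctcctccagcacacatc
Fth1 is shown because an m6A peak begins at one of its annotated starts. The 250 bases before that start are given on the plus strand (chr19:9982396-9982645), with capitals for the same motif on either strand. Of the marked stretches, TTGGGCAA matches on the opposite strand:
Fth1 promoter: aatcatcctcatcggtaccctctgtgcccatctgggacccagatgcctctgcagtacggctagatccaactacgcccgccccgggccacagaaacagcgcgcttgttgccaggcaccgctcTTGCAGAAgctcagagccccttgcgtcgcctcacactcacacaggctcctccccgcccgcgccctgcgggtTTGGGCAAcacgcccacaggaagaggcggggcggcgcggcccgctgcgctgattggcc
A short stretch inside the genomic interval of that peak follows (chr19:9982660-9982689, plus strand), with TATAA in capitals. The stretch lies after that annotated start and outside the 250 bases above:
Fth1 peak stretch: gcaggatcccgcTATAAgtgcggcccgctg
Cp had the next largest rise, and 30 bases before one of its annotated starts are given (chr3:19957212-19957241, plus strand), with TATAAA in capitals:
Cp stretch: tgaagccctattTATAAAattgcttgcttc

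Both strands of the 250 bases before each start were searched for 5 motifs, chosen after the values were seen. TTGCNNAA was found in 3 of the 10 windows of these genes, on Lcn2, Cp and Fth1, and in 9.56% of all 32851 promoter windows. TATAAA was found in 2 of the 10 windows, on Cp and at another annotated start of Fth1, and in 12.4% of all. ACGTG, the core of hypoxia response elements, was found in 1 of the 10, on Tfrc, and in 16.6% of all. TTCNNNGAA, bound by STAT factors, was found in 0 of the 10 and in 7.02% of all, and TGACNNNGC, a core of antioxidant response elements, in 0 of the 10 and in 10.2% of all. No window was matched for Slc40a1, Slc11a2 or Hmox1, so these counts say nothing of their promoters. Sequence further from the starts was not searched. A match describes letters and does not show binding.

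In input RNA, 5 of the 10 genes were called higher and 2 lower after knockdown by the authors' adjusted p under 0.05. Lcn2 and Cp had the largest rises, Tfrc, Slc11a2 and Fth1 rose slightly, and Slc40a1 and Hmox1 fell. Ftl1, Ireb2 and Aco1 did not pass. Over all 12807 genes with an adjusted p, 17.1% were called higher and 15.5% lower. The median log2 fold change was 0.11 for the 10 genes and -0.0023 for all genes tested, from the authors' deposited table. All 10 genes had an adjusted p-value, so none was lost to the filter on low means.

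**Figure D1:**
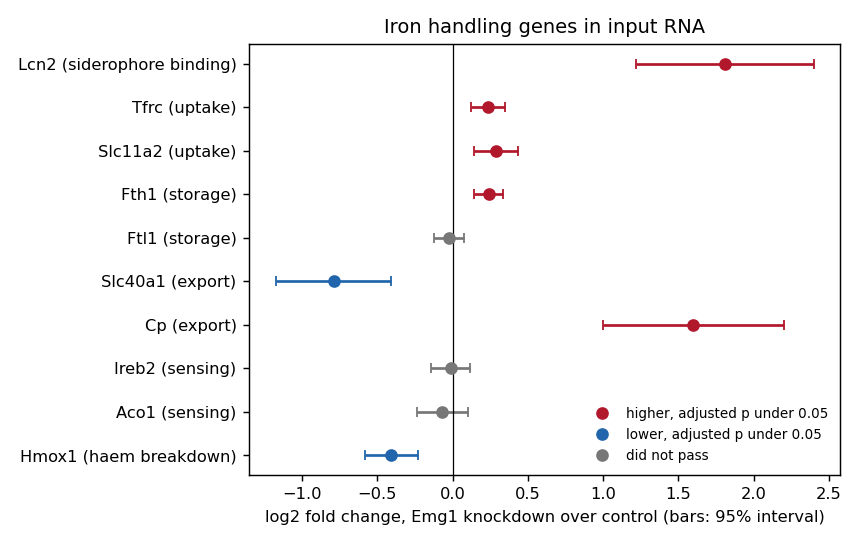
Log2 fold change in input RNA, Emg1 knockdown over control, of the 10 iron handling genes in order of role; points are values of the authors' deposited table and bars are 95% intervals from their SE. Lcn2 at 1.81 and Cp at 1.60 lie to the right of the other members, and the bars of Ftl1, Ireb2 and Aco1 cross 0.

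Lcn2 encodes lipocalin 2, a secreted protein that binds iron-laden siderophores and is known as an acute-phase and innate immune gene. The authors' deposited table gave it a mean of 138 normalized counts over the fit and a log2 fold change of 1.81 ± 0.30 (SE, adjusted p = 3.35e-08). This corresponds to 3.51 times the control level, with a 95% interval from the SE of 2.33 to 5.27. Among all 12807 genes with an adjusted p, 3 had a higher fold change. At its low count the precision was that of its neighbours: the median SE of the 1023 genes within 1.5-fold of its mean was 0.28, and 1 of them had a higher fold change. Lcn2 (mm10 chromosome 2, 32384637 to 32387739) overlaps no other gene span of the RefSeq table. Because the RNA comes from whole cultures, a rise in a few cells and a smaller rise in many cannot be told apart.

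Receptors for lipocalin 2 were scarcely detected. Slc22a17 and Lrp2, whose products bind or take up the protein, had means of 18.5 and 1.95 normalized counts, and both lack an adjusted p-value in the authors' deposited table. Their log2 fold changes were -1.14 ± 0.78 and -1.08 ± 2.63 (SE) in the authors' deposited table, so no direction can be read from them.

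The uptake genes rose by small amounts. Tfrc, which encodes the transferrin receptor, had a mean of 14952 normalized counts and a log2 fold change of 0.24 ± 0.06 (SE, adjusted p = 0.000471) in the authors' deposited table. Its level was 118% of control, with an interval of 109 to 128%. Slc11a2, the gene of the divalent metal transporter DMT1, had a mean of 2818 and a log2 fold change of 0.29 ± 0.07 (SE, adjusted p = 0.000637) in the authors' deposited table, or 122% of control (111 to 135%). Changes of this size were common: 2809 genes had a higher fold change than Tfrc and 2170 a higher one than Slc11a2. The RefSeq span of Slc11a2 overlaps that of the predicted gene Gm5475 over 1017 bases.

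Of the ferritin subunit genes, Fth1 was called higher and Ftl1 did not pass. Fth1 encodes the heavy chain, which oxidises iron as it enters the shell, and Ftl1 the light chain, which helps to form the mineral core. Fth1 had a mean of 21294 normalized counts and a log2 fold change of 0.24 ± 0.05 (SE, adjusted p = 1.49e-05) in the authors' deposited table, or 118% of control with an interval of 110 to 126%. Ftl1 had a mean of 32150 and a log2 fold change of -0.03 ± 0.05 (SE, adjusted p = 0.755) in the authors' deposited table, or 98.3% of control with an interval of 91.8 to 105%. The difference between the subunits was not tested, since the genes were chosen with these values known. The RefSeq table names 2 heavy-chain and 3 light-chain ferritin pseudogenes, of which 0 are listed in the input table, and counts of both genes are uncertain where reads could be split.

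The export genes moved in opposite directions. Slc40a1 encodes ferroportin, the iron exporter, and had a mean of 318 normalized counts. Its log2 fold change was -0.79 ± 0.20 (SE, adjusted p = 0.000369) in the authors' deposited table, which is 57.8% of control with an interval of 44.3 to 75.3%. Of all tested genes, 459 had a lower fold change. Cp encodes ceruloplasmin, a copper ferroxidase that oxidises exported iron for loading onto transferrin. With a mean of 114 normalized counts, it rose by 1.60 ± 0.31 (log2, SE, adjusted p = 2.5e-06) in the authors' deposited table, to 3.03 times control with an interval of 2.00 to 4.60, and 5 genes had a higher fold change. The RefSeq span of Cp (chromosome 3, 19956933 to 20009750) overlaps that of Hps3 over 13806 bases, and the sources used here do not say whether counting used the strand. Hps3 had a mean of 715 and a log2 fold change of 0.11 ± 0.13 (SE, adjusted p = 0.555) in the authors' deposited table.

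The iron sensors did not pass. Ireb2, which encodes iron regulatory protein 2, had a mean of 6481 normalized counts and a log2 fold change of -0.01 ± 0.06 (SE, adjusted p = 0.902) in the authors' deposited table. Its interval, 90.7 to 108% of control, leaves room for changes of less than 10% in either direction. Aco1 encodes iron regulatory protein 1, which serves as cytosolic aconitase when it holds an iron-sulfur cluster. It had a mean of 1854 and a log2 fold change of -0.07 ± 0.09 (SE, adjusted p = 0.598) in the authors' deposited table, with an interval of 84.8 to 107% of control.

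Hmox1, the gene of the inducible haem oxygenase that frees iron from haem, fell. Its mean was 1686 normalized counts and its log2 fold change -0.41 ± 0.09 (SE, adjusted p = 6.21e-05) in the authors' deposited table, or 75.4% of control with an interval of 66.7 to 85.3%. Its constitutive relative Hmox2 had a log2 fold change of 0.02 ± 0.10 (SE, adjusted p = 0.889) in the authors' deposited table.

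**Figure D2:**
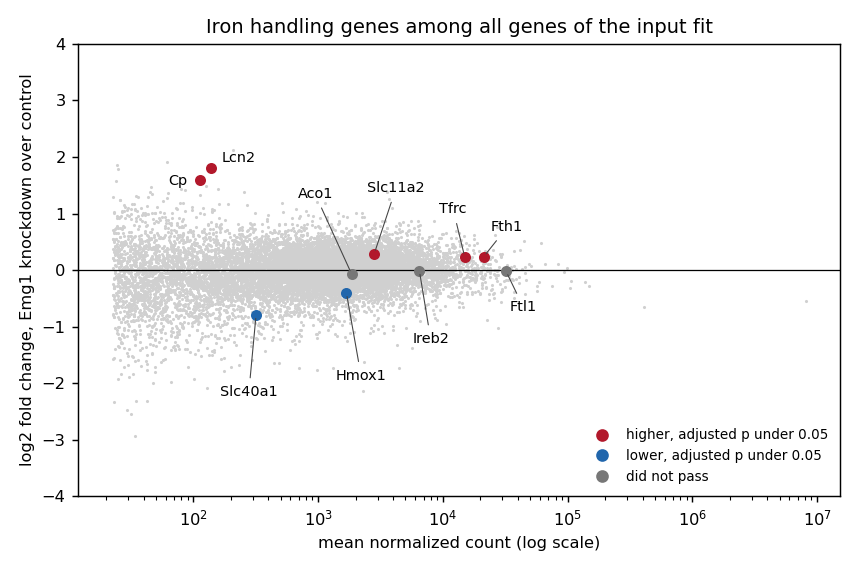
Log2 fold change in input RNA, Emg1 knockdown over control, against mean normalized count on a log axis; grey points are the 12807 genes with an adjusted p and coloured points the 10 iron handling genes. Lcn2 and Cp stand at the upper edge of genes with means near 100, while Tfrc and Fth1, with means of 14952 and 21294, rose by 0.24 each.

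A wider list of 83 genes in 10 role groups set these values beside the rest of the pathway. Of these, 77 were in the table, 2 of them under older symbols, and the other 6 were not analysed here. Among the 70 with an adjusted p, 12 were called higher and 10 lower, with a median log2 fold change of 0.0027 in the authors' deposited table. That is 17.1% higher and 14.3% lower, near the shares of 17.1% and 15.5% over all tested genes. Nothing particular to the list is read from these shares. The counts by role group below stand beside the same shares over all tested genes and are description only.

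Beyond Tfrc and Slc11a2, 0 of 7 genes of uptake and endosomal release passed. Mcoln1, an endolysosomal channel that conducts iron, had a log2 fold change of 0.16 ± 0.08 (SE, adjusted p = 0.127), and Slc39a14, a transporter of non-transferrin-bound iron, one of -0.04 ± 0.10 (SE, adjusted p = 0.815), in the authors' deposited table. The 4 measured genes of export and its control did not pass either. Hfe, whose product acts in hepcidin regulation, was at -0.51 ± 0.26 (log2, SE, adjusted p = 0.122), and Neo1, a receptor that binds hemojuvelin, was at 0.14 ± 0.07 (log2, SE, adjusted p = 0.107), in the authors' deposited table.

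Storage and iron chaperones had 3 measured genes, of which 1 rose, 1 fell and 1 did not pass. Ncoa4, the receptor that delivers ferritin to the lysosome for degradation, fell by 0.41 ± 0.10 (log2, SE, adjusted p = 0.000409) in the authors' deposited table. Pcbp2, a poly(C)-binding protein that also serves as an iron chaperone, rose by 0.25 ± 0.05 (log2, SE, adjusted p = 6e-06) in the authors' deposited table. Pcbp1, its relative, was at 0.06 ± 0.20 (log2, SE, adjusted p = 0.852) there. Fbxl5, the ubiquitin ligase subunit that targets iron regulatory protein 2 for degradation when iron is plentiful, fell by 0.29 ± 0.08 (log2, SE, adjusted p = 0.00146) in the authors' deposited table. It was the 1 called gene of 5 in the sensing group.

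Haem genes were split as well. Of 9 haem synthesis genes, 2 rose and 2 fell: Alad, the second enzyme of the pathway, rose by 0.25 ± 0.07 (log2, SE), Fech, which inserts iron into the ring, fell by 0.31 ± 0.09, and Urod fell by 0.31 ± 0.11 in the authors' deposited table. Of 7 genes of haem breakdown and transport, 2 rose and 1 fell. Mfsd7b, listed as the haem exporter gene Flvcr1 in the RefSeq table, rose by 0.45 ± 0.11, and Blvrb, a biliverdin reductase, by 0.32 ± 0.09 (log2, SE) in the authors' deposited table. Slc48a1, an endolysosomal haem transporter, fell by 0.40 ± 0.08 (log2, SE, adjusted p = 4.72e-06) in the authors' deposited table.

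Mitochondrial iron and iron-sulfur cluster assembly counted 18 genes, of which 3 rose, 3 fell and 12 did not pass. Isca2 and Nubp1, assembly factors of the mitochondrion and the cytosol, fell by 0.47 ± 0.13 and 0.45 ± 0.11 (log2, SE) in the authors' deposited table.

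The other targets of Nrf2, the oxidative stress regulator that also drives Hmox1, had 1 call higher and 2 lower among 8. Txnrd1 rose by 0.30 ± 0.05, while Me1 fell by 0.20 ± 0.06 and Slc7a11, the cystine transporter, by 0.16 ± 0.06 (log2, SE) in the authors' deposited table. Among acute phase and NF-kB genes, to which Lcn2 and Cp also belong, 3 of 9 rose and 0 fell, against 17.1% higher and 15.5% lower over all tested genes. Cebpd, a C/EBP transcription factor, rose by 1.10 ± 0.43 (adjusted p = 0.0354), the acute phase gene Saa3 by 1.00 ± 0.40 (adjusted p = 0.039) and Nfkbia, the NF-kB inhibitor, by 0.32 ± 0.07 (log2, SE, adjusted p = 2.16e-05) in the authors' deposited table. Cebpd and Saa3 had means of 72.0 and 67.4 normalized counts, and both calls are lost at an adjusted p under 0.01 and where means of at least 100 are required. The median of these 9 genes was 0.23, and Stat3 and Socs3 did not pass, for which the authors' deposited table gave adjusted p-values of 0.833 and 0.425.

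**Figure D3:**
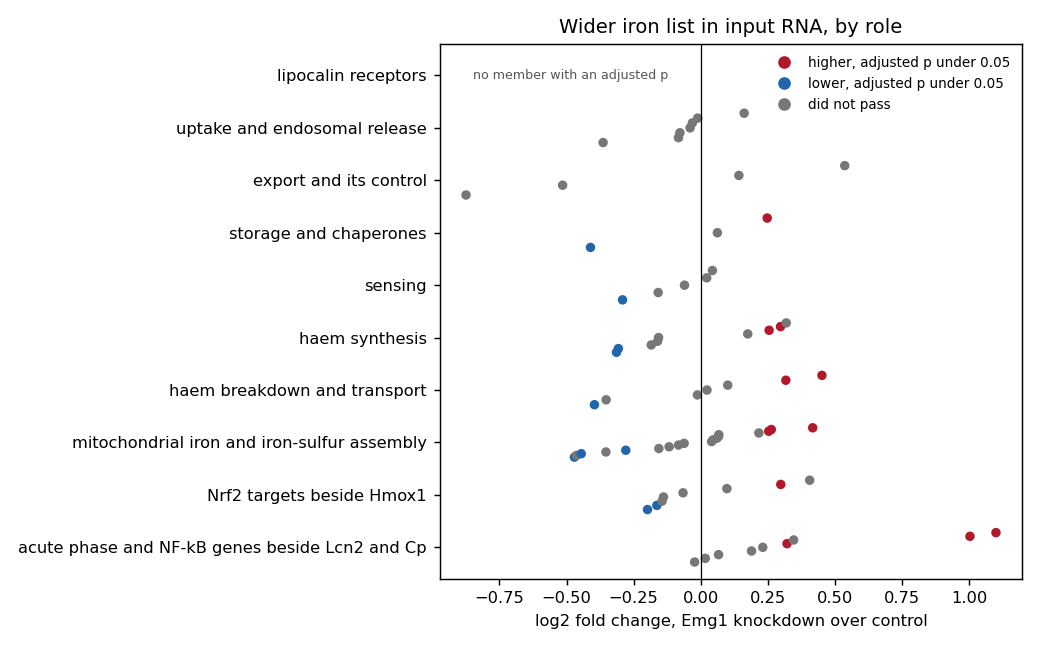
Log2 fold change in input RNA, Emg1 knockdown over control, of the wider list by role group; each point is a gene with an adjusted p in the authors' deposited table. Called genes lie on both sides of 0 in the storage, haem, iron-sulfur and Nrf2 groups, and the 3 called acute phase and NF-kB genes all lie above 0.

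The level of Emg1 and markers of cell type were read in the same table. In the authors' deposited table Emg1 had a log2 fold change of -1.73 ± 0.11 (SE), or 30.2% of control. The direction of all input changes was read from this sign. The value therefore gives the size of the Emg1 change and is no check of direction. Of 12 neuroblastoma and neuron markers 11 were in the table, with means of 42.6 to 21840, and 5 of them rose and 3 fell, against 17.1% and 15.5% of all tested genes. In the authors' deposited table their log2 fold changes ran from -1.06 ± 0.32 for Th, the gene of tyrosine hydroxylase, to 0.63 ± 0.50 for Dbh, which did not pass, with Stmn2 at -0.65 ± 0.06 and Phox2a at 0.59 ± 0.07 (SE). Macrophage and leukocyte markers summed to 21.1 normalized counts over 3 of 6 genes in the table, and neutrophil markers to 1.74 over 1 of 6. Those are cell types known for Lcn2, and none of their markers in the table had an adjusted p. Markers of hepatocytes, known for Cp, summed to 9.97 over 1 of 5 genes in the table. Erythroid markers summed to 4.68 over 1 of 4, markers of astrocytes and glia to 791 over 5 of 6, and fibroblast markers to 1822 over 4 of 6, where Pdgfrb fell by 0.98 ± 0.19 (log2, SE, authors' deposited table).

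Differential m6A peaks were listed on 2 of the 10 genes, Fth1 and Ireb2. Over all genes with an adjusted p in input RNA, 14.8% carried a listed peak. The file names no numerator for the change of a peak, so a sign is printed as deposited and cannot be read as gain or loss after knockdown. Because the table holds differential peaks only, methylation of the other 8 genes was not analysed here.

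The Fth1 peak covered 119 bases in 1 block (mm10 chromosome 19, 9982640 to 9982758, plus strand). It began 6 bases before the annotated start whose promoter is printed above and reached 113 bases into the gene from it. The authors' deposited table gave it a fold enrichment of IP over input of 1.92, a log2 change of -1.57 and a false discovery rate of 7.94e-15. Of the 1123 peaks with a negative change, 116 were more negative, while 14.1% of all 2114 peaks were less enriched. It was thus a weakly enriched peak with a large change, where the median enrichment of all listed peaks was 5.525. Of its bases, 56 lie in the RefSeq window, and these hold the TATAA shown above, starting at base 33 of the peak, and 0 matches to the DRACH consensus of m6A sites on the plus strand. The remaining bases were not analysed, so whether the whole peak lacks a DRACH match is not known. TATAA is shorter than the TATAAA searched above, and its share over all windows was not computed.

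The Ireb2 peak had the opposite character. It spanned 2 blocks of 90 and 569 bases with a gap of 703 between them (chromosome 9, 54908838 to 54910199, plus strand), and its end lay 2335 bases before the end of the RefSeq gene span. The authors' deposited table gave a fold enrichment of 15.6, a log2 change of -0.34 and a false discovery rate of 3.72e-05. Of all peaks 78.8% were less enriched, and 1026 of the 1123 negative changes were larger in size. In input RNA, by the authors' deposited table, Fth1 rose by 0.24 ± 0.05 (log2, SE) and Ireb2 was at -0.01 ± 0.06. Without a stated numerator the sign of a peak change cannot be set against that of an input change.

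On the wider list 10 genes carried a listed peak, 5 with a positive and 5 with a negative change, which is 14.3% of its 70 tested genes. In the sensing group, Fbxl5 had a change of 0.39 at an enrichment of 21.8, and Cdc42bpa one of -0.89 at 1.53, in the authors' deposited table. Slc39a14 had the largest positive change, 1.85 at an enrichment of 2.02, and Cebpb, a C/EBP factor, the largest negative one, -2.79 at 3.51, in the authors' deposited table. Pcbp1, an iron chaperone that loads ferritin, had the most enriched peak of the list, 35.9, with a change of -0.62 in the authors' deposited table. In input RNA Cebpb was at 0.23 ± 0.44 (log2, SE), where the median SE of genes within 1.5-fold of its mean was 0.18. For Pcbp1 the SE was 0.20, where that median was 0.064. Whether this wide spread in input enters the peak changes was not tested. Peaks on Nfs1, Isca1, Mms19 and Nfkbiz had changes between -0.99 and 0.66.

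**Figure D4:**
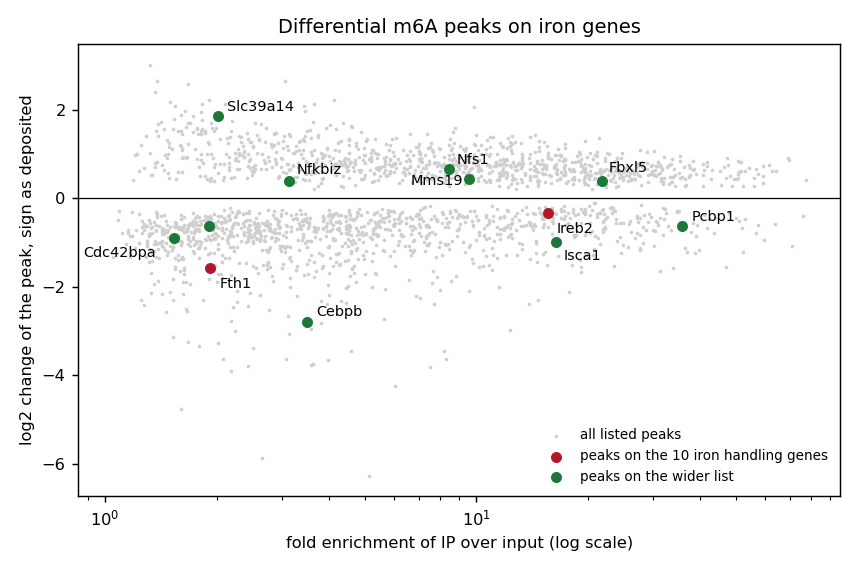
Log2 change of each differential m6A peak, sign as deposited, against its fold enrichment of IP over input on a log axis; grey points are all 2114 peaks, red those on the 10 iron handling genes and green those on the wider list, with names for those described. Fth1 sits at an enrichment of 1.92 with a change of -1.57, and Ireb2 at 15.6 with -0.34.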

How the data were processed

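Reads were processed with Trimmomatic, HISAT2 and DESeq2 on mm10, per the submitters' processing notes. For versions, the read counter, the annotation, the use of strand and the peak caller: not given in the sources used here. Per the file headers, the authors deposited for each gene a mean expression signal (mean normalized count), a log2 fold change with its SE, a score (the Wald statistic, equal to fold change over SE), a p-value and an adjusted p-value. The deposited peak table gives a fold enrichment ratio of IP over input, a log2 change, and log10 values of a p-value and false discovery rate; its peak p-value column was not used. Peak coordinates were 0-based in the file and are printed 1-based. Adjusted p was lacking for 3472 genes, all with a mean at or below 22.7. The input file states no direction; Emg1 was negative, and changes are read as knockdown over control. Depth per library is unknown and no count model was refitted, since the tables hold no values per library.

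Genes were called at the authors' adjusted p under 0.05, by DESeq2's Wald test with adjustment over the 12807 genes that have one. Intervals of 95% are the log2 fold change ± 1.96 SE, a normal approximation. Members and lists were chosen with earlier results of these data known. All members are named, with up to 3 called genes per role group by smallest adjusted p, or 2 by mean where none was called; other genes were named after their values were seen, and some results under this rule are not reported here. Alternatives were thresholds of 0.01 and 0.1, Benjamini-Hochberg adjustment over every gene or over those with means of 100 or more, centring, a minimum of 1.5-fold and stricter peak filters. The adjustment was run on simulated Wald statistics drawn with the deposited SE, which cannot check those SE or the authors' calls. Promoter windows are from RefSeq. Scripts ran in Python 3.11.15 with scipy 1.17.1, pandas 2.3.3, matplotlib 3.10.9 and numpy 2.4.6.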

Additional observations from a re-analysis of the deposited data

How the results depend on the processing

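All 50 combinations of the 10 genes with 5 alternative thresholds, adjustments or centring kept the direction and the call; centring moved values by 0.0077 (log2). With calls limited to changes of at least 1.5-fold, 2 of the 10 genes were called higher and 1 lower, and 2 of the wider list higher and 0 lower, against 12 and 10 by adjusted p alone. In the wider list, an adjusted p under 0.01 left 8 genes higher and 7 lower, and a minimum mean of 100 left 10 and 10. At a fold enrichment of at least 2, 1 of the 10 genes kept a listed peak, since the Fth1 peak was at 1.92. No paired analysis was possible because the deposited tables hold no value per library, and leaving out a replicate was not run for the same reason. Low counts limit Lcn2 and Cp, whose SE were 0.30 and 0.31, where the median over genes tested was 0.11. Whether 1 library carries their rise was not tested.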

Other observations

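In the order of log2 fold change among the 4066 called genes with a mean of at least 100, Lcn2 stood at place 2 and Cp at place 3. Likeness could only be taken over 1 comparison, and the genes beside them were Htr3b above, at 2.12 ± 0.24, and Dio2, Hist1h2af and Meg3 below, at 1.49 ± 0.29, 1.44 ± 0.28 and 1.39 ± 0.23 (log2, SE) in the authors' deposited table. Dio2 encodes a deiodinase that activates thyroid hormone, Htr3b a serotonin receptor subunit, Hist1h2af a histone H2A and Meg3 a long non-coding RNA. Their means lay between 126 and 253 normalized counts, in the range where the SE is wide.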
